A study of Mus musculus with 12 samples.

Results

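The enzymes that split uridine, break down its base or return uridine to the nucleotide pool were followed in mouse liver after exposure to secondhand smoke (SHS) and after recovery in clean air. They are the products of 7 genes of the 18193 that the array's annotation names alone, namely Upp1, Upp2, Dpyd, Dpys, Upb1, Uck1 and Uck2. Every probe set that the annotation assigns to 1 of them was taken, which gave 18 of the 45037 probe sets tested, and no probe set named a member beside other genes. Each probe set sums several short oligonucleotide probes for 1 or more transcripts of a gene. The list was chosen by the signals of Upp2 on these same arrays, which were known to be higher in SHS-exposed livers than in controls. The values of Upp2 are therefore a description and carry no test.

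Liver RNA from 12 adult male C57BL/6 mice was hybridised to Affymetrix mouse genome arrays, 1 mouse per array. The SHS4m group held 4 mice taken at the end of 4 months of SHS exposure. The SHS4m+1m recovery group, called recovery mice here, held 4 mice that had the same exposure and then 1 month in clean air. The control group held 4 mice that were sham-treated in filtered air, and the authors describe the controls as age-matched. The sham mice came with and without a recovery period, and the labels do not say which of these each control array holds. Which exposed group a control array matches in age is therefore not known. Recovery mice were taken 1 month later after the start of exposure than SHS4m mice, so recovery and age cannot be told apart between these groups. The mice could eat and drink freely throughout. The hour at which the livers were taken and when the mice had last eaten are not given in the sources used here.

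Uridine phosphorylases split uridine into uracil and ribose-1-phosphate. The liver removes uridine from the blood and breaks the uracil down in 3 enzymatic steps to beta-alanine, while uridine that is phosphorylated by uridine-cytidine kinases is kept as nucleotide. Dihydropyrimidine dehydrogenase, the first of the breakdown enzymes, is best known in humans as the enzyme that clears the drug 5-fluorouracil.

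Signals were scaled by the authors to a common trimmed mean on every array, were raised to a floor of 32 where they lay below it, and are given as log2. The median signal was 65.1 to 74.2 on SHS4m arrays, 67.2 to 73.9 on recovery arrays and 72.4 to 78.1 on control arrays. RNA degradation raises the 3' signal of actin relative to its 5' signal. This ratio was 3.24 to 3.9 on control arrays, 3.9 to 4.64 on SHS4m arrays and 4.1 to 8.82 on recovery arrays. The value of 8.82 was that of recovery replicate 3, and the next highest on a recovery array was 4.36. No exposed array lay below a control array. The same ratio for Gapdh overlapped between all groups and was also highest on recovery replicate 3 (4.52). The part of RNA quality in the differences between groups was not tested. limma was fitted with all 12 arrays and 3 groups in a single model. A probe set is called where the two-sided p, adjusted by the Benjamini-Hochberg method over all 45037 probe sets, lies under 0.05. Both comparisons with controls use the same 4 control arrays, so they are not independent of each other.

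Upp2, the uridine phosphorylase that is made mainly in liver, had a higher signal in SHS-exposed livers than in controls on all 3 of its probe sets. The RefSeq table gives it 2 transcription starts on the forward strand of chromosome 2 (build GRCm38.p6), 187850 bases apart. Both windows of 300 bases, from 250 before to 50 after the start, are shown because the 3 probe sets of Upp2 did not follow each other after recovery and a gene with several starts can give several transcripts. The window of Upb1 is shown beside them, as that of the other member with a higher level in both exposed groups. Capitals mark AGGTCA, the half-site of nuclear receptors, and TATAAA, the TATA box.
Upp2, upstream start, chr2:58567084-58567383 (+): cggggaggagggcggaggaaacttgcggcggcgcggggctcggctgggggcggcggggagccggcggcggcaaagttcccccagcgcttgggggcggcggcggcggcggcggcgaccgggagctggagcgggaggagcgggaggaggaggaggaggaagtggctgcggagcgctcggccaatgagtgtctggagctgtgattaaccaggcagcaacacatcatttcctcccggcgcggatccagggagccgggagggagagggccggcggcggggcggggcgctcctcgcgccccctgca
Upp2, downstream start, chr2:58754934-58755233 (+): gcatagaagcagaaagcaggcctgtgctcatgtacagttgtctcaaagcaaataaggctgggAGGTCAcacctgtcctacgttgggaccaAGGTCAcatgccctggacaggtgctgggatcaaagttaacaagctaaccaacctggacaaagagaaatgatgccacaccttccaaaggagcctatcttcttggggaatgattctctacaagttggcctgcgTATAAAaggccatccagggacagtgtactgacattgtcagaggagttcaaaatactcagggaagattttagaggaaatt
Upb1, chr10:75406661-75406960 (+): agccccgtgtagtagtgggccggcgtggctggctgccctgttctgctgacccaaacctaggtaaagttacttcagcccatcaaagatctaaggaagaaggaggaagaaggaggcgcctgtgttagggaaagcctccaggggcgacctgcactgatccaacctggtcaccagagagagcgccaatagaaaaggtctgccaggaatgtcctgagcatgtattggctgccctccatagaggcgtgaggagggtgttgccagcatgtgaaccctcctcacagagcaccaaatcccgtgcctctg

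The upstream window of Upp2 was rich in G and C (75.3%) and held none of the letters searched. The downstream window was 47.0% G and C. It held AGGTCA 2 times, at positions -188 and -160 from the start, and TATAAA at -29. AGGTCA, on the reverse strand, was also in the window of Uck2 (2 times) and in 1 window of Upp1. Of all 32851 RefSeq promoter windows of this length, 16.3% held AGGTCA and 13.6% held TATAAA on either strand. The E-box CACGTG (7.15% of windows) and the D-box core TTANGTAA (2.32%), at which clock proteins can bind, were in neither window of Upp2 and in none of the 10 windows of the 6 members that had one. None of the 4 motifs overlaps another in these windows. TATAAA was added to the search after the sequences had been read. The array does not say which start the RNA came from, as probe positions were not used here.

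On the brightest Upp2 probe set, 1424969_s_at, log2 signals were 14.36, 14.37, 14.43 and 14.27 in SHS4m livers, 13.96, 14.14, 14.15 and 14.08 in recovery livers, and 12.98, 13.06, 12.08 and 11.67 in control livers. Every exposed liver lay above every control, and the recovery arrays lay just below the SHS4m arrays with no overlap. The means were 14.36 ± 0.0669 in SHS4m mice, 14.08 ± 0.0842 in recovery mice and 12.45 ± 0.679 in controls (SD, n = 4 each). On the linear scale the geometric mean signals were 20980, 17330 and 5587 in the same order of groups. SHS4m mice thus had 3.76-fold the control level (log2 difference 1.91, standard error 0.271) and recovery mice 3.1-fold (1.63, standard error 0.271). The controls were spread the widest, with replicates 1 and 2 above replicates 3 and 4. In whole liver RNA, a change in the share of the cells that express a gene and a change in RNA per cell cannot be told apart.

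The second probe set, 1451548_at, read the same pattern. Its log2 signals were 14.13, 13.93, 13.72 and 13.67 in SHS4m livers, 13.59, 13.71, 13.20 and 13.52 in recovery livers, and 11.94, 12.26, 11.09 and 10.91 in control livers. The level was 4.98-fold that of controls in SHS4m mice (log2 2.32, standard error 0.284) and 3.88-fold in recovery mice (log2 1.96, standard error 0.284). The recovery arrays overlapped the SHS4m arrays, with a difference of -0.36. Over the 12 arrays these 2 probe sets correlated at r = 0.983, and at 0.871 once each group's mean was taken off. They share the 3 groups and the same arrays, and the annotation assigns both to the same transcript record.

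The third probe set, 1460059_at, was dimmer and parted from the other two after recovery. Its log2 signals were 9.23, 8.98, 8.48 and 8.92 in SHS4m livers, 7.48, 7.79, 6.99 and 7.42 in recovery livers, and 7.22, 6.62, 6.72 and 6.83 in control livers. SHS4m mice had 4.16-fold the control level (log2 2.06, standard error 0.208), close to the folds of the brighter probe sets. Recovery mice, in contrast, had 1.49-fold (log2 0.57, standard error 0.208), with arrays that overlapped the controls. Recovery lay 1.48 below SHS4m on the log2 scale (difference -1.48, standard error 0.208), with no overlap of arrays. Within groups this probe set hardly followed the brightest one (r of deviations 0.0665) and followed the second at 0.364. Whether it reads another transcript of Upp2 was not tested.

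**Figure D1:**
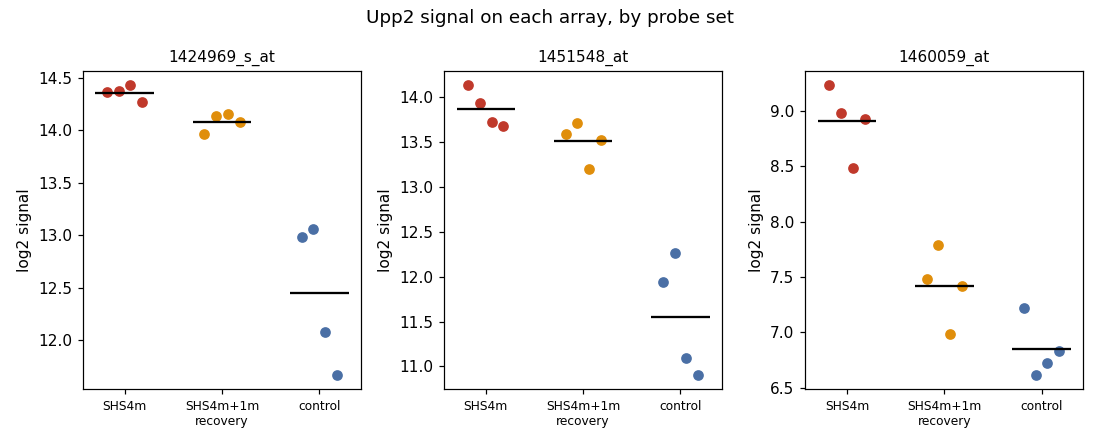
Log2 signal of Upp2 (y axis) on each of the 12 arrays in SHS4m, SHS4m+1m recovery and control livers (x axis), 1 panel per probe set with its own y range. Points are single arrays and bars are group means. On 1424969_s_at and 1451548_at both exposed groups lie above all controls, while on 1460059_at the recovery mean of 7.42 lies near the control mean of 6.85.

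Leaving out any 1 array, the difference between SHS4m mice and controls stayed between 1.65 and 2.55 over the 3 probe sets. For recovery mice against controls it ran from 1.38 to 1.84 for 1424969_s_at, from 1.74 to 2.19 for 1451548_at and from 0.45 to 0.72 for 1460059_at. Without recovery replicate 3, the array with the high actin ratio, these 3 differences were 1.61, 2.06 and 0.72.

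The genes whose signal most resembled that of Upp2 (1424969_s_at) were Mtss1, Usp2, Fgfrl1, Ccz1 and Bnip3, out of 9609 genes with a mean log2 signal of at least 7. Pearson's r over the 12 arrays was 0.986 for Mtss1, which encodes a protein that binds actin and membranes. It was 0.983 for the deubiquitinase Usp2, 0.981 for Fgfrl1, a receptor of the fibroblast growth factor family, 0.968 for Ccz1, which acts in the traffic of late endosomes, and 0.967 for Bnip3, a receptor in the removal of mitochondria. With group means taken off, r was 0.919, 0.896, 0.895, 0.911 and 0.841 in the same order. These 12 points share their 3 groups, and within the groups most of the spread is that of the controls.

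Usp2 resembled Upp2 in the gap between exposed and control livers and in the spread of the controls. Its log2 signals (1417168_a_at) were 12.60, 13.14, 12.92 and 12.35 in SHS4m livers, 12.79, 12.63, 12.55 and 12.28 in recovery livers, and 9.93, 10.72, 8.87 and 8.44 in control livers. Control replicates 1 and 2 were above control replicates 3 and 4 for both genes. The recovery arrays did not share an order, as replicate 1 had the lowest Upp2 signal of them (13.96) and the highest Usp2 signal (12.79). Usp2 is a rhythmic gene in mouse liver, and Upp2 is known to vary over the day there as well.

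**Figure D2:**
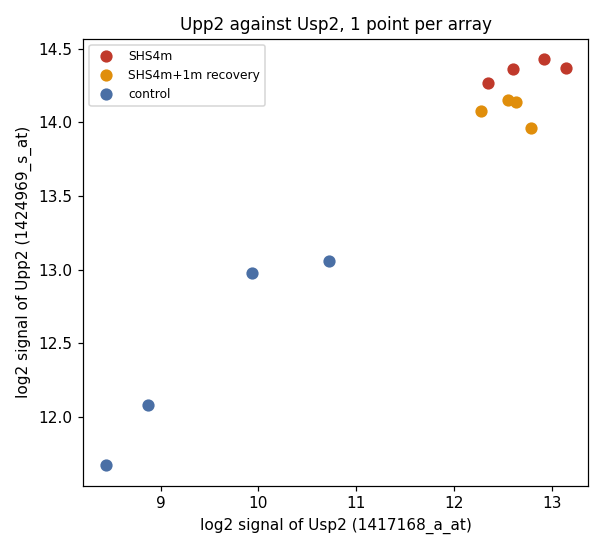
Log2 signal of Upp2 (1424969_s_at, y axis) against that of Usp2 (1417168_a_at, x axis), 1 point per array, coloured by group. The 8 exposed livers lie together at the top right and the 4 controls lie apart from each other, with replicates 1 and 2 (Upp2 at 12.98 and 13.06) above replicates 3 and 4 (12.08 and 11.67).

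Of 16 clock genes and clock outputs, 5 were called in SHS4m mice against controls, among 7.47% of all genes read by their brightest probe set. Per2, Tef, Ciart and Usp2 were higher (log2 differences from 1.05 to 3.26, adjusted p = 0.0228 for Per2 at 1.32) and Clock was lower (-1.02). In recovery mice against controls, the same 4 genes were higher (Per2 1.30, Tef 1.23, Ciart 2.60 and Usp2 3.07) and Clock was lower (-1.18), against 2.52% of all genes called. In both comparisons Per2 and Tef were each called on 1 of 3 probe sets, Clock on 3 of 4 and Usp2 on 2 of 2. The calls of Clock, Tef and Usp2 held on leaving out any 1 array. With only the 8 arrays compared, Tef was lost in SHS4m mice (adjusted p = 0.0531), and Clock (0.0652), Tef (0.0765) and Usp2 (0.0652) were lost in recovery mice. Per2 was lost in SHS4m mice without SHS4m replicates 1, 2 or 4 (adjusted p up to 0.0601). In recovery mice Per2 was lost on leaving out any 1 array, with floors of 16 and 64 and with only the 8 arrays compared. Its adjusted p there was up to 0.159 over all alternatives. Ciart was lost in SHS4m mice without control replicates 3 or 4 or SHS4m replicates 2 or 3, and with only the 8 arrays compared. In recovery mice Ciart was lost on leaving out any 1 array other than control replicate 2. It was also lost there with floors of 16 and 64 and with only the 8 arrays compared. The adjusted p of Ciart was up to 0.0717 in SHS4m mice and 0.121 in recovery mice over all alternatives. None was called between recovery and SHS4m mice, with differences from -1.51 to 1.42. Dbp, a target of the clock that peaks by day, differed by 0.43 in SHS4m mice (limma adjusted p = 0.764) and 1.66 in recovery mice (adjusted p = 0.166). Arntl, the partner of Clock, differed by -1.64 and -2.28 (adjusted p = 0.158 and 0.0863) and Nr1d1, the repressor of Arntl, by -0.95 and -1.08 (adjusted p = 0.629 and 0.675). By their brightest probe sets, the other 11 of the 16 were not called in either comparison with controls. Per3 was called on 1 of its 6 probe sets in both. On its brightest it differed by 0.73 in SHS4m mice and 2.15 in recovery mice (limma adjusted p = 0.549 and 0.0632). Per1 differed by 1.69 and 1.87 (adjusted p = 0.0753 and 0.0865). This list, like the feeding and pyrimidine lists below, was chosen with earlier results of these data known. Nothing is therefore read from the counts beside the shares of all genes. The part of the clock genes in the level of Upp2 was not tested.

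Of 10 measured genes that respond to fasting and feeding, 3 were called in SHS4m mice against controls, all higher, among 7.47% of all genes called (3.73% higher). These were Pck1, which makes glucose precursors (1.20), Igfbp1, which binds insulin-like growth factors (3.48), and the coactivator Ppargc1a (1.74). Pck1 was called on 2 of 3 probe sets and Ppargc1a on 5 of 5. Angptl4 was not called on its brightest probe set (1.41, limma adjusted p = 0.082), but was on 1 of its 2. None of the 10 was called in recovery mice against controls (differences from -1.51 to 0.89). Recovery against SHS4m mice had 1 higher, the lipogenic enzyme Fasn (1.58), and 3 lower (G6pc, Igfbp1 and Ppargc1a), among 3.68% of all genes called. There Angptl4 was called on 1 of 2 probe sets and Pck1 on 1 of 3, in neither case the brightest. The calls of Pck1, Igfbp1 and Ppargc1a held in all 19 alternatives. Those of Fasn (up to 0.0758) and G6pc (up to 0.0988) were lost in 7 each, without SHS4m replicates 1, 2 or 3 or recovery replicates 2 or 3 for both genes. The part of feeding state in the values of Upp2 was not tested.

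Upp1 is the uridine phosphorylase of most other tissues. Its log2 signals (1448562_at) were 7.34, 7.58, 7.29 and 7.20 in SHS4m livers, 8.11, 7.48, 7.06 and 7.63 in recovery livers, and 7.02, 6.94, 7.25 and 7.20 in control livers. All 3 groups overlapped, and recovery replicate 1 held the highest value. The difference from controls was 0.25 in SHS4m mice (standard error 0.193, limma adjusted p = 0.612) and 0.47 in recovery mice (95% interval 0.04 to 0.90, adjusted p = 0.314). Neither was called, and the 95% interval of the SHS4m difference was -0.18 to 0.68.

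Dpyd, dihydropyrimidine dehydrogenase, reduces uracil in the first breakdown step and limits the rate of the route. It was not called on any of its 3 probe sets. On 1427946_s_at its log2 signal averaged 14.22 ± 0.0543 in SHS4m mice, 14.24 ± 0.136 in recovery mice and 14.19 ± 0.0891 in controls (SD, n = 4 each). The difference from controls was 0.03 in SHS4m mice (95% interval -0.12 to 0.18, limma adjusted p = 0.944) and 0.05 in recovery mice (-0.10 to 0.21, adjusted p = 0.827). A second probe set, 1427945_at, differed by 0.22 and 0.14 (adjusted p = 0.389 and 0.678). The third, 1443717_at, lay at the floor on 10 of 12 arrays and gave no usable level.

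Dpys, dihydropyrimidinase, opens the ring of dihydrouracil in the second step, and it was not called on any of its 3 probe sets. On the brightest, 1436291_a_at, the log2 signal averaged 13.14 ± 0.0807 in SHS4m mice, 13.25 ± 0.0994 in recovery mice and 13.12 ± 0.107 in controls (SD, n = 4 each). SHS4m mice differed from controls by 0.02 (95% interval -0.13 to 0.17, limma adjusted p = 0.988) and recovery mice by 0.14 (-0.01 to 0.29, adjusted p = 0.421). On 1425688_a_at the differences were -0.01 and 0.06. The dimmest, 1425689_at, stood somewhat apart, at 9.09, 9.38, 9.03 and 8.85 in SHS4m livers, 9.62, 9.31, 9.64 and 9.76 in recovery livers, and 9.24, 9.19, 8.94 and 9.32 in control livers. There the recovery livers were 0.49 above SHS4m livers (standard error 0.133, adjusted p = 0.0991) and 0.41 above controls (standard error 0.133, adjusted p = 0.184), with 1 recovery array inside the range of both.

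Upb1, beta-ureidopropionase, was the breakdown enzyme that rose. It carries out the third step, which releases beta-alanine. Its only probe set, 1460244_at, gave log2 signals of 13.55, 13.77, 13.65 and 13.59 in SHS4m livers, 13.64, 13.73, 13.79 and 13.61 in recovery livers, and 13.21, 13.31, 13.17 and 13.25 in control livers. All 8 exposed livers lay above all 4 controls. The geometric mean signals were 12780 in SHS4m mice, 13250 in recovery mice and 9639 in controls. The level was thus 1.33-fold that of controls in SHS4m mice (log2 0.41, standard error 0.0559, limma adjusted p = 0.00376). In recovery mice it was 1.37-fold (log2 0.46, standard error 0.0559, adjusted p = 0.00688). Recovery and SHS4m mice differed by 0.05 (95% interval -0.07 to 0.18, adjusted p = 0.773).

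The rise of Upb1 held in all 19 alternative settings. Leaving out 1 array at a time gave 0.37 to 0.44 in SHS4m mice and 0.43 to 0.49 in recovery mice. Over all alternatives the adjusted p reached at most 0.0377 for SHS4m mice and at most 0.0465 for recovery mice. Without recovery replicate 3 the recovery difference was 0.43 (adjusted p = 0.0176). The 6 hepatocyte markers lay above the floor on every array. None of them was called, and their summed signal was 270500 to 303500 in SHS4m mice, 237200 to 383500 in recovery mice and 304300 to 350300 in controls. The SHS4m sums lay below the control sums. Of the 6, Tat, a tyrosine-degrading enzyme, was higher on all SHS4m arrays than on all control arrays (0.89, adjusted p = 0.0764), while Apoa1 (-0.30), Ttr (-0.36) and Cyp2e1 (-0.48) were lower on all SHS4m arrays. The part of the hepatocyte share in the values of Upb1 was not tested.

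The uridine-cytidine kinases, which turn uridine and cytidine into UMP and CMP, were not called against controls. Uck1 (1424399_at) had log2 signals of 10.23, 10.07, 9.78 and 10.17 in SHS4m livers, 9.75, 9.55, 9.68 and 9.42 in recovery livers, and 9.74, 9.69, 9.86 and 9.76 in control livers. The SHS4m arrays were the highest apart from replicate 3, and the recovery arrays lay below all SHS4m arrays. The difference from controls was 0.30 in SHS4m mice (standard error 0.102, limma adjusted p = 0.143) and -0.16 in recovery mice (standard error 0.102, adjusted p = 0.59). Uck1 fell by 0.46 on the log2 scale in recovery mice against SHS4m mice (standard error 0.102, adjusted p = 0.0485). This call lay just inside the threshold. It was lost without any single array other than SHS4m replicate 3 (adjusted p up to 0.12), and without that array it was 0.018. Without SHS4m replicate 3 Uck1 was also called in SHS4m mice against controls (0.39, adjusted p = 0.0339).

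Uck2, the kinase that many dividing cells use, was not called on any of its 6 probe sets in any comparison. The brightest, 1439740_s_at, averaged 8.24 ± 0.146 in SHS4m mice, 7.99 ± 0.0575 in recovery mice and 7.89 ± 0.276 in controls (SD, n = 4 each). SHS4m mice differed from controls by 0.35 (95% interval 0.07 to 0.63, limma adjusted p = 0.164) and recovery mice by 0.10 (-0.19 to 0.38, adjusted p = 0.836). Control replicate 3, at 8.25, was the only control array inside the SHS4m range, and without it the SHS4m difference was 0.47 (adjusted p = 0.0351). Over the other 5 probe sets the differences ran from -0.26 to 0.46 in SHS4m mice and from -0.24 to 0.59 in recovery mice. The upper ends belong to 1439741_x_at (adjusted p = 0.226 and 0.171), and 1417137_at lay at the floor on 11 of 12 arrays.

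**Figure D3:**
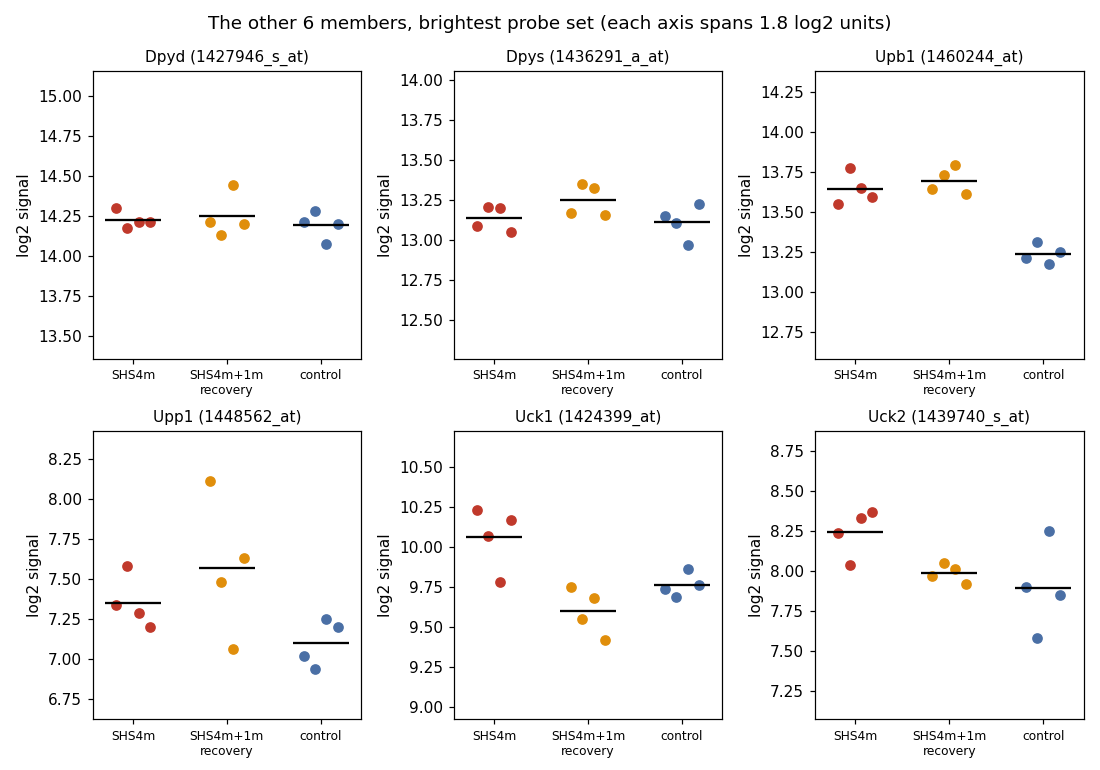
Log2 signal (y axis, each panel spanning 1.8 log2 units) of the brightest probe set of Dpyd, Dpys, Upb1, Upp1, Uck1 and Uck2 on each array in SHS4m, SHS4m+1m recovery and control livers (x axis). Points are single arrays and bars are group means. Only for Upb1 do both exposed groups lie above all 4 controls, whose highest value is 13.31.

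Counted by probe set, 4 of 18 were called in SHS4m mice against controls, where 5.4% of all 45037 probe sets were called. They were the 3 of Upp2, which are a description and no test, and that of Upb1. The same 4 had arrays that did not overlap between these groups, as 11.8% of all probe sets did. In recovery mice against controls it was 3 of 18 (2 of Upp2 and Upb1), against 2.07% of all probe sets, and the same 3 did not overlap, against 7.61%. Between recovery and SHS4m mice it was 2 of 18, both lower (Upp2 1460059_at and Uck1), against 2.54% of all probe sets in either direction and 1.22% lower. With Upp2 1424969_s_at, 3 of 18 did not overlap there, against 8.24%. As Upp2 was known to be high when the list was made, nothing is read from these shares. By the brightest probe set of each gene, the median difference of the 7 members was 0.30, 0.14 and 0.02 in the same order of comparisons, and over all genes it was close to 0.

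**Figure D4:**
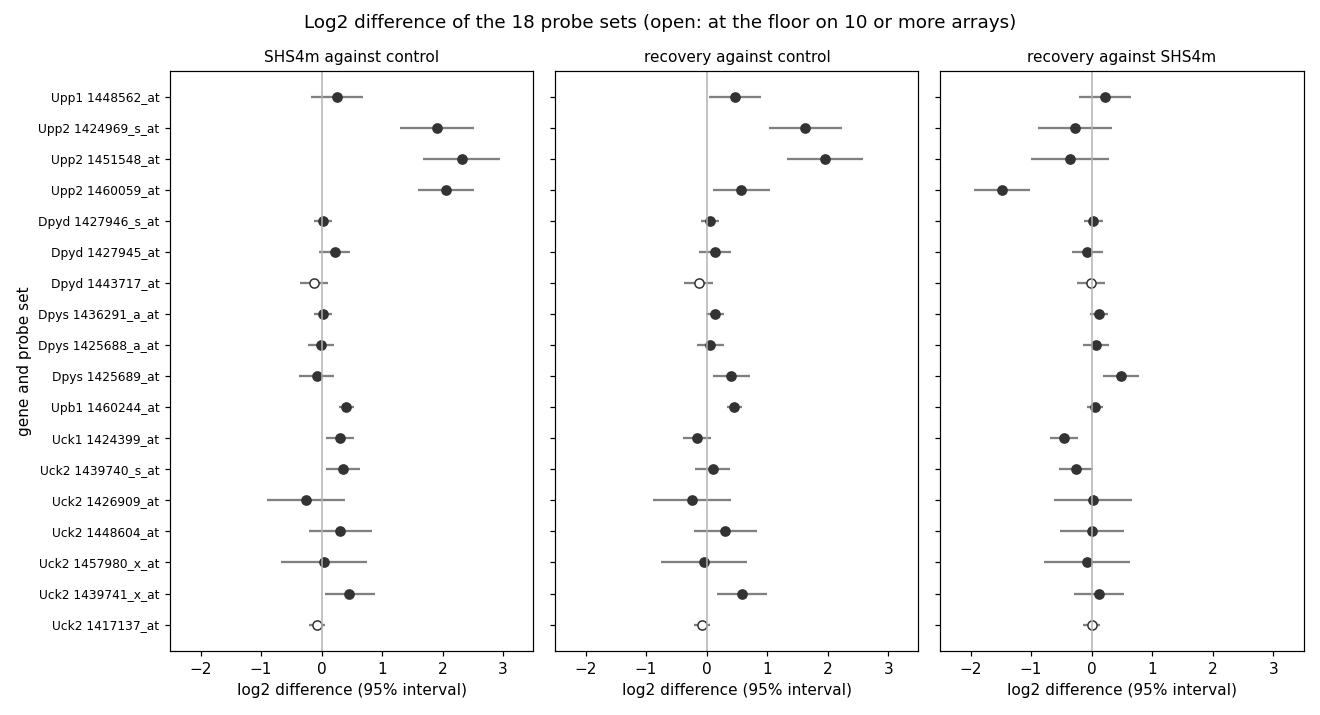
Log2 difference (x axis) with its 95% interval for the 18 probe sets (y axis), 1 panel per comparison. Open points lie at the floor on 10 or more arrays, and the values of Upp2 are a description. The 3 Upp2 probe sets stand at 1.91 to 2.32 in SHS4m mice against controls, and in recovery mice 1460059_at lies at 0.57 while the other two are at 1.63 and 1.96.

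The rest of pyrimidine metabolism was read from 8 lists of 46 genes, of which 40 were measured, each by its brightest probe set. In SHS4m mice against controls 9 of 40 were called, 6 higher and 3 lower, beside 7.47% of all genes (3.73% higher and 3.74% lower). In recovery mice against controls 4 of 40 were called, 3 higher and 1 lower, beside 2.52% (1.37% higher and 1.14% lower). Between recovery and SHS4m mice 4 of 40 were called, all lower, beside 3.68% (2.01% higher and 1.68% lower). The medians of the 40 differences were 0.08, 0.00 and -0.06, close to those of all genes.

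In SHS4m mice against controls Rrm2, the small subunit of ribonucleotide reductase, rose 4.17-fold (log2 2.06, limma adjusted p = 0.00413). Its 3 probe sets were all called, and it was the 1 gene called of the 4 measured in the thymidylate and ribonucleotide reduction list. Tk1, the thymidine kinase of dividing cells, rose by 0.98 (adjusted p = 0.00596). Dctpp1, which hydrolyses dCTP and its modified forms, rose by 0.44 (adjusted p = 0.00116). Cmpk2, a mitochondrial UMP-CMP kinase that interferon induces, fell by 1.28 (adjusted p = 0.00573). These 4 calls, all in SHS4m mice against controls, held in all 19 alternatives. In recovery mice against controls Rrm2 (0.99, adjusted p = 0.136), Tk1 (0.59, adjusted p = 0.0819) and Cmpk2 (-0.84, adjusted p = 0.0605) were not called. Apart from Rrm2, the called pyrimidine genes with several probe sets were called on only 1 of them. It was 1 of 2 for Cmpk2, Nt5c3 and Abat, 1 of 3 for Ctps2, Nt5c3b, Nt5e and Uxs1, and 1 of 4 for Umps.

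Ctps2, a CTP synthase, rose by 0.69 in SHS4m mice (limma adjusted p = 0.0254), a call lost on leaving out control replicates 1, 3 or 4 or SHS4m replicates 1, 2 or 4 (up to 0.0703). Umps, which makes UMP in the last steps of new synthesis, was 0.41 higher in recovery mice (adjusted p = 0.0268), and this call did not hold without control replicates 1, 3 or 4, nor without recovery replicates 2 or 4 (up to 0.0958 over all alternatives). Nt5c3, a nucleotidase that acts on UMP and CMP, was 0.55 higher in SHS4m mice (adjusted p = 0.0209) and 0.62 higher in recovery mice (adjusted p = 0.0252). The SHS4m call was lost without control replicates 3 or 4 or SHS4m replicates 2 or 3 (up to 0.0705 over all alternatives). The recovery call was lost without control replicates 2, 3 or 4 or recovery replicates 2, 3 or 4 (up to 0.0703 over all alternatives). Its relative Nt5c3b, close to the floor, rose by 0.74 in SHS4m mice (adjusted p = 0.0397), and that call was lost in 11 of 19 alternatives, 9 of them on leaving out 1 array (up to 0.368). It held without SHS4m replicate 4 or recovery replicates 1 or 3.

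Some genes were lower after recovery. Nt5e, the nucleotidase CD73 of the cell surface, averaged 8.73 in SHS4m mice, 7.43 in recovery mice and 8.54 in controls. It was 1.11 lower in recovery mice than in controls (log2 -1.11, limma adjusted p = 0.0145) and lower still than in SHS4m mice (log2 -1.30, adjusted p = 0.00625). Fitting only the 8 arrays of recovery and control mice lost the first call (adjusted p = 0.0736). Abat, a transaminase that acts on beta-alanine, the product of Upb1, was lower in recovery than in SHS4m mice (log2 -0.52, adjusted p = 0.00805). Against controls Abat differed by 0.27 in SHS4m mice (adjusted p = 0.0735) and by -0.25 in recovery mice (adjusted p = 0.136), so the only call lay between the exposed groups. The nucleoside carrier Slc29a1 was also lower in recovery than in SHS4m mice (log2 -0.73, adjusted p = 0.0416), a call lost without any single array other than recovery replicate 1 (up to 0.113 over all alternatives). Dctpp1 was 0.23 above controls in recovery mice (adjusted p = 0.0391) and 0.21 lower than in SHS4m mice (log2 -0.21, adjusted p = 0.0473), calls lost in 14 and 13 of 19 alternatives, with adjusted p up to 0.284 and 0.409. On leaving out 1 array, the first held without control replicate 1 or recovery replicate 3, and the second without control replicates 1 or 4 or recovery replicate 4.

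Among the makers of UDP-sugars, which draw on uridine nucleotides, Uxs1 fell by 0.81 in SHS4m mice (limma adjusted p = 0.0287). This was lost without control replicates 3 or 4 or SHS4m replicates 1, 3 or 4 (up to 0.0746 over all alternatives). Galt, which is outside the 12 genes that the naming rule covers and was named after its value was seen, fell by 0.34 (adjusted p = 0.0398). That call was lost in 14 of 19 alternatives (up to 0.183) and, on leaving out 1 array, held without control replicates 1 or 2. Agxt2 and Aldh6a1, which like Abat act at the end of the route, were not called. In SHS4m mice Agxt2 differed from controls by 0.12 and Aldh6a1 by -0.06, and in recovery mice they differed by 0.11 and -0.01.

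**Figure D5:**
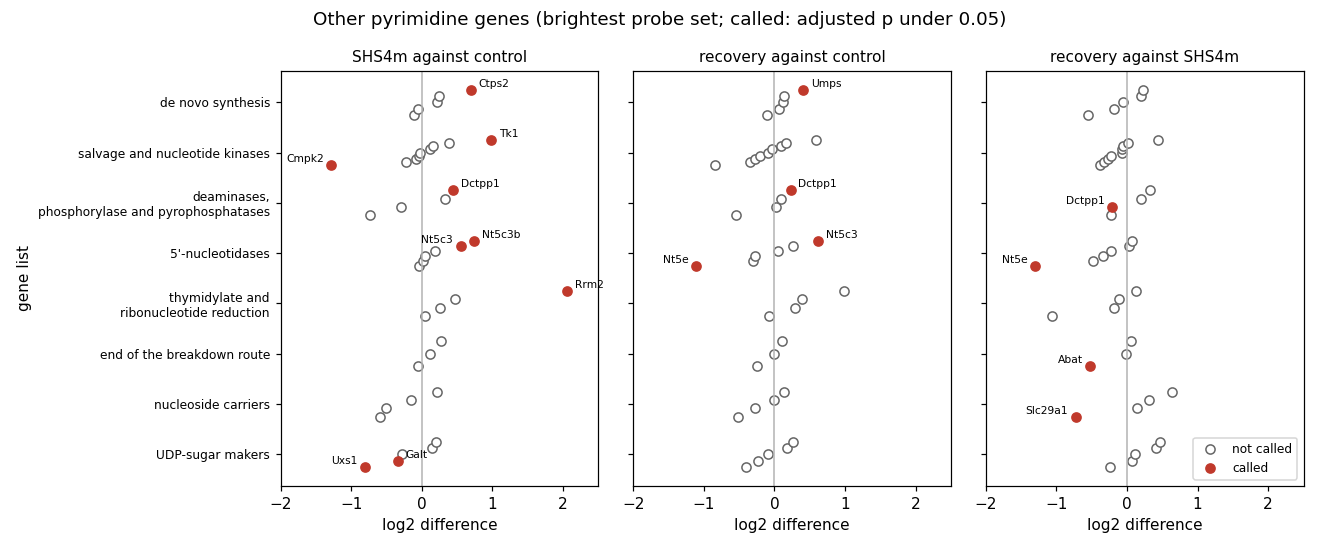
Log2 difference (x axis) of 40 other pyrimidine genes by list (y axis), 1 panel per comparison, each gene read by its brightest probe set. Filled points are called and named, open points are not called. Rrm2 at 2.06 and Cmpk2 at -1.28 are the extremes in SHS4m mice against controls, and all 4 called genes are lower in recovery against SHS4m mice.

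Of the markers of other cells, 2 of 6 for Kupffer cells and macrophages were called in SHS4m mice against controls, 1 higher and 1 lower. Over all genes, 7.47% were called there. None of the 6 was called in recovery mice against controls. The summed signal of 6 Kupffer cell and macrophage markers was 10940 to 13630 in SHS4m mice, 11950 to 15650 in recovery mice and 13780 to 16330 in controls, so that the SHS4m sums lay below the control sums. Of these markers Marco was higher (1.90, called on 1 of its 2 probe sets) and Clec4f lower (-0.51) in SHS4m mice. The Clec4f call was lost with median centring (adjusted p = 0.0515). Clec4f was higher in recovery than in SHS4m mice (0.46), 1 of 6 called there, beside 3.68% of all genes. This last call was lost in 16 of 19 alternatives, 10 of them on leaving out 1 array (up to 0.109), and held without control replicate 2 or SHS4m replicate 1. None of the 6 lay at the floor on every array. No marker of neutrophils, T cells, B cells, endothelium, stellate cells, cholangiocytes or pancreas was called in any comparison. Several of these lay at the floor on many of the 12 arrays, where a change could go unseen. Among them were Cpa1 on all 12, Ctrb1 on 11, Cd3d on 7 and Krt19 on 6. Neutrophil sums were 522 to 1475 in SHS4m mice, 565 to 744 in recovery mice and 586 to 995 in controls, and 1 of 5 markers was at the floor on every array. B cell sums were 171 to 232 in SHS4m mice, 251 to 384 in recovery mice and 243 to 442 in controls, so that the SHS4m sums lay below those of the other groups. The part of other cells in the values of the uridine genes was not tested.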

How the data were processed

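Liver RNA of 12 mice was read on 1-colour Affymetrix arrays. The deposited values are linear intensity signals per probe set that the authors made in Affymetrix Expression Console, and the mean of each array is 500 once the top and bottom 2% of values are trimmed off. The summarisation algorithm and software version are not given in the sources used here. Of 45101 probe sets, 64 array controls were left out. Below the floor of 32 lay 29.9% to 33.5% of an array's values, so a gene near it shows only part of a change.

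The model had 3 groups and no covariate, and was fitted with limma 3.58.1 (lmFit, eBayes) in R 4.3.3 on log2 values. The script was tested on simulated data. Gene names came from the platform's annotation, in which 34945 probe sets name 1 gene, 932 several and 9160 none. In lists a gene is read by its brightest probe set (mean of 12 arrays). Alternatives were floors of 16 and 64, quantile normalization, median centring, only the 8 arrays compared, a filter that left 34862 probe sets, a variance trend, and leaving out each array.

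All probe sets of the 7 members are named, as are up to 12 called genes of the other pyrimidine lists by size of difference and the 5 genes most like Upp2. The members and lists were chosen with earlier results of these data known, so nothing is read from their counts beside the shares of all genes. Replicates were numbered in accession order and pair nothing. They are separate mice, and 4 arrays per group limit the precision. Promoter windows are RefSeq's for GRCm38.p6, and 6 of 7 members matched. Some listed genes were not matched and are not reported here.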

Additional observations from a re-analysis of the deposited data

Results flagged for a closer look

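In Uck2, the probe set 1457980_x_at had 1 array far from the rest of its group. The log2 signal was 6.03 on recovery replicate 1 and 7.17, 7.39 and 7.24 on the other recovery arrays, a gap past Dixon's critical value for groups of 4. It was the 1 outlier among the 48 groups tested, and chance flags about 1 in 20. The probe set was not called in any comparison, and no other group among the 48 tested met the criterion. These 48 do not cover all 3 groups of all 18 probe sets.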

How the results depend on the processing

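The log2 differences of Upp2, which are a description, kept their direction in all 19 alternatives. They moved by less than the residual standard deviation of the probe set in the main fit. The calls of Upb1 against controls held in all 19. Counts of member probe sets called include those of Upp2, which are a description and no test. The number of member probe sets called in SHS4m mice against controls was 4 to 5 when 1 array was left out. In recovery mice against controls it was 2 to 3 without 1 array and 1, that of Upb1, with only the 8 arrays compared, against 3. Between recovery and SHS4m mice it was 2, and 1 with floors of 16 and 64, with only the 8 arrays compared and with dim probe sets left out (1 to 2 without 1 array), since Uck1 was lost (adjusted p = 0.0701, 0.0556, 0.142 and 0.09 under these settings). The count of other pyrimidine genes in SHS4m mice against controls was 9, and 4 to 9 without 1 array, the lowest without control replicates 3 or 4. In recovery mice against controls it was 4, and 2 with a floor of 16 and with dim probe sets left out, 1 with median centring and 1 with only the 8 arrays compared (1 to 4 without 1 array). Between recovery and SHS4m mice it was 4, and 2 with median centring and 2 with only the 8 arrays compared (2 to 4 without 1 array). Of 17 calls in 13 of these genes, 6 held in every alternative.

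Differences near 0 changed sign. With quantile normalization Dpyd (1427946_s_at) differed by -0.0016 and Dpys by -0.023 between SHS4m mice and controls. Leaving out 1 array gave -0.011 to 0.061 for Dpyd and -0.026 to 0.059 for Dpys there, below 0 without control replicate 3 and, for Dpys, also without SHS4m replicate 2 (-0.0022). For Dpyd in recovery mice it gave -0.012 to 0.093 against controls and -0.041 to 0.063 against SHS4m mice, below 0 without recovery replicate 3. For Uck2 (1439740_s_at) in recovery mice against controls it gave -0.01 to 0.21, below 0 without control replicate 2. None was called. The cause of these changes was not tested. No paired analysis was possible because the labels pair no arrays. The 2 probe sets at the floor on nearly all arrays, 1 of Dpyd and 1 of Uck2, say nothing of their genes.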
